A study of Homo sapiens with 18 samples.

Results

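Hairpin 8 was the only hairpin used in both of the medulloblastoma lines of this study, and it was compared here with the other hairpin against the same target, EYA2. In D425 the other hairpin was hairpin 6, and in D458 it was hairpin 7. The comparison used 12 of the 18 libraries, chosen by their labels: 3 each of D425 with hairpin 6, D425 with hairpin 8, D458 with hairpin 7 and D458 with hairpin 8. Both lines are labelled as models of Group 3 medulloblastoma, a childhood tumour of the cerebellum. All cells had been transduced with a construct that carries a short hairpin RNA and the fluorescent protein zsGreen. Selection with puromycin (1 µg/mL) lasted 48 h, the brightest 10% of cells were then sorted, and polyadenylated RNA was taken 24 h later. The 6 remaining libraries were from cells with a non-targeting hairpin. They entered none of the main tests, but they did enter the scaling factors and an alternative fit that is named where it is used. Their levels are given only to show on which side of a hairpin pair a difference lay. The labels number 3 replicates per group and do not say whether each was a separate transduction, so p-values measure only the spread between these samples. Library totals ran from 21260369 to 28711549 counts in the 12 libraries.

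EYA2 belongs to the eyes absent family, proteins that bind homeodomain factors as coactivators and also carry a phosphatase domain. A short hairpin RNA is trimmed in the cell by DICER1, and 1 strand then guides an Argonaute protein to matching messages. Such a guide can also lower messages that match only its seed, the stretch from base 2 to base 8. A gene that differs between hairpins against 1 target may therefore follow the sequence of either hairpin or the amount of target that is left. In these data hairpin 8 differed from the other hairpin in both respects in D458, and the 2 cannot be told apart there. The sequences of the study's hairpins were not used here, so no gene was matched to a seed.

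EYA2 itself was lower with hairpin 8 than with the other hairpin in D458 and not in D425. In D425, EYA2 was at 15.2, 10.7 and 9.69 CPM (counts scaled by library size and TMM factor) in replicates 1, 2 and 3 with hairpin 6 and at 17.7, 12.1 and 12.5 CPM with hairpin 8. The ranges of these groups overlapped, although the hairpin 8 library was the higher in each of the 3 pairs. The log2 difference, hairpin 8 minus hairpin 6, was 0.25 ± 0.09 (standard error, 3 pairs; 95% interval 0.07 to 0.43) and did not pass the test over all genes (edgeR quasi-likelihood, adjusted p = 0.101). In D458, EYA2 was at 48.2, 51.7 and 45.1 CPM with hairpin 7 and at 18.5, 23.4 and 19.2 CPM with hairpin 8. Every hairpin 8 library was below every hairpin 7 library, and the log2 difference was -1.25 ± 0.08 (95% interval -1.41 to -1.09, adjusted p = 1.1e-08). The control libraries held 43.8, 24.7 and 15.6 CPM in D425 and 72.3, 67.2 and 69.0 CPM in D458. The difference between the lines was itself past the test, at -1.5 ± 0.12 on the log2 scale (edgeR, adjusted p = 5.6e-07).

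The partners of EYA2 moved little. Of the 12 genes listed for the EYA and DACH network, 10 were tested, and EYA2 was the only one that passed in D458 or in the mean of both lines. DACH1, a corepressor of the network, had log2 differences of 0.00 ± 0.13 in D425 and -0.20 ± 0.10 in D458. SIX2, a homeodomain factor, was the nearest to the threshold in the mean of both lines, at -0.14 ± 0.05 (edgeR, adjusted p = 0.082).

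MIR30A, the gene of the microRNA miR-30a, had the largest difference of the genes that passed in both lines. It is shown here with its sequence because it was the one regulatory RNA among those genes. The hairpin and both mature arms are given 5′ to 3′ as RefSeq has them on GRCh38.p14, at chr6:71403551-71403621 on the minus strand. Capitals mark the seeds, bases 2 to 8 of each mature arm.
microRNA 30a hairpin: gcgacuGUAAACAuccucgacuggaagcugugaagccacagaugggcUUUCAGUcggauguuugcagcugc
hsa-miR-30a-5p: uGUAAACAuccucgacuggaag
hsa-miR-30a-3p: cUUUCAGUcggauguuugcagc

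In D425, MIR30A received 157, 257 and 424 counts with hairpin 6 and 43, 153 and 85 counts with hairpin 8. In D458 it received 178, 84 and 123 counts with hairpin 7 and 66, 21 and 41 with hairpin 8. The hairpin 8 libraries were below those of the other hairpin in both lines, with no overlap. Groups that did not overlap were found for 10.5% of all genes tested in D425 and 5.91% in D458. The log2 differences were -1.68 ± 0.25 in D425 (adjusted p = 0.0073) and -1.73 ± 0.29 in D458 (edgeR, adjusted p = 0.040), and their mean was -1.70 ± 0.19 (adjusted p = 0.0016). The control libraries held 47, 36 and 33 counts in D425 and 41, 17 and 35 in D458. The libraries with hairpins 6 and 7 were therefore the ones that stood above the controls, while those with hairpin 8 lay in the range of the controls or closer to it. The surrounding transcript LINC00472 did not move with it: its log2 difference was -0.05 ± 0.47 in D425 and 0.20 ± 0.32 in D458, on 6 to 31 counts per hairpin library. MIR30C2, from the same host transcript, had 1 count in all 12 libraries. The miR-30a hairpin is widely used as the scaffold of short hairpin constructs, and the labels do not name the vector of this study. Whether the reads came from the cell's own gene was not tested.

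Few genes passed in both lines, and those that did moved the same way. Of 14672 genes tested, 526 passed at an adjusted p under 0.05 in D425 (3.59% of genes tested; 281 higher, 1.92%, and 245 lower, 1.67%). In D458, 60 passed (0.409%; 28 higher, 0.191%, and 32 lower, 0.218%). These lists shared 8 genes (0.0545% of genes tested), which were 1.52% of the D425 list and 13.3% of the D458 list. No gene passed in opposite directions. The 3 higher genes were SLC2A3, NRL and RCBTB1, and the 5 lower genes were MIR30A, MXRA8, HMHA1, SFXN3 and CCND3. In D425, 50 of the 60 genes from D458 had the sign they had in D458, and over all genes tested 61.9% had the same sign in both lines. Over 9906 genes of at least 8 CPM, the log2 differences of the lines had a Pearson correlation of 0.288 and a Spearman correlation of 0.41. The points are genes and not replicates. Although the lines share no library, their pairs share the numbers in the labels that are read here as run numbers. When all 18 libraries were fitted together, controls included, 0 genes passed in D425 and EYA2 alone in D458, and without the pairing of replicates 0 passed in either line (454 and 259 at an unadjusted p under 0.05).

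**Figure D1:**
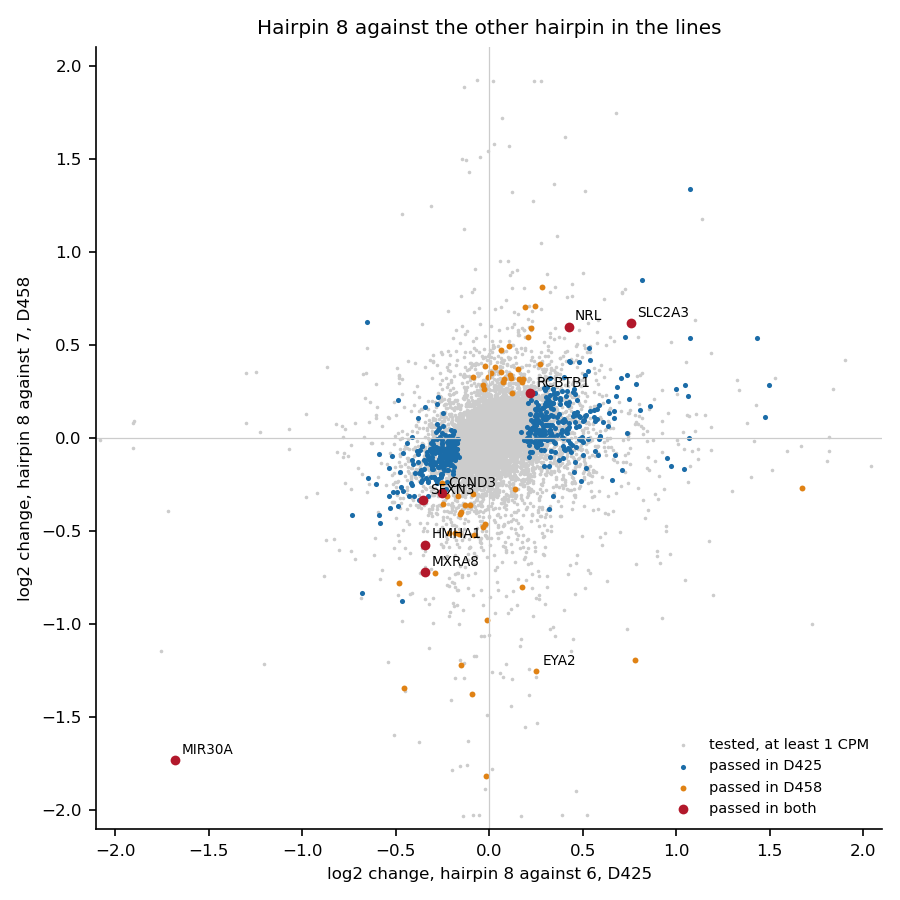
Log2 difference between hairpin 8 and hairpin 6 in D425 (horizontal) against that between hairpin 8 and hairpin 7 in D458 (vertical), 1 point per tested gene of at least 1 CPM (12820 genes, 27 of them outside the axes). Blue genes passed in D425, orange in D458 and red in both; MIR30A lies at -1.68 and -1.73, and EYA2 at 0.25 and -1.25.

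SLC2A3 encodes the neuronal glucose transporter GLUT3. It was at 7.64, 6.00 and 8.32 CPM with hairpin 6 and at 14.6, 8.06 and 15.1 CPM with hairpin 8 in D425. SLC2A3 levels in D458 were 6.52, 5.4 and 6.63 CPM with hairpin 7 and 10.1, 9.18 and 9.16 CPM with hairpin 8. The groups overlapped in D425, through replicate 2, and not in D458. The log2 differences were 0.76 ± 0.12 (adjusted p = 0.0020) and 0.62 ± 0.13 (edgeR, adjusted p = 0.034). The controls, at 11.3 to 13.3 CPM in D425 and 12.9 to 14.2 CPM in D458, were above every library of the other hairpin, so the hairpin 8 libraries lay nearer to them.

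NRL encodes the leucine zipper factor that directs rod photoreceptor genes, and Group 3 medulloblastoma is known for expressing such genes. NRL was at 20.8, 18 and 17.5 CPM with hairpin 6 and 34.8, 19.5 and 22.9 CPM with hairpin 8 in D425. D458 cells had 28, 16.1 and 19.8 CPM with hairpin 7 and 42.3, 25.9 and 28.3 CPM with hairpin 8. The groups overlapped in both lines, because replicate 1 was high in each of them, while every hairpin 8 library was above its own partner. The log2 differences were 0.43 ± 0.09 (adjusted p = 0.018) and 0.60 ± 0.09 (edgeR, adjusted p = 0.0093). RCBTB1, which encodes a BTB-domain protein linked to inherited retinal disease, rose by less, at 0.22 ± 0.05 and 0.24 ± 0.05. It was the most even of the 8 genes over the 6 pairs.

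Of the lower genes, MXRA8 encodes an adhesion protein of the cell surface. It was at 73.8, 94.1 and 111 CPM with hairpin 6 and 52.3, 87.9 and 82.3 CPM with hairpin 8 in D425, overlapping ranges. The D458 libraries were at 10.2, 11.8 and 10.6 CPM with hairpin 7 and at 6.29, 6.11 and 7.29 CPM with hairpin 8. In D458 hairpin 8 was also below the controls at 13.6, 12.1 and 11.1 CPM. In D425 it was not: the controls received 1395, 1772 and 1910 MXRA8 counts in replicates 1, 2 and 3. The D425 libraries with hairpin 8 received 1560, 2399 and 2446 counts, and those with hairpin 6 received 1854, 2432 and 3345. The log2 differences of MXRA8 were -0.34 ± 0.07 (adjusted p = 0.015) and -0.72 ± 0.11 (edgeR, adjusted p = 0.0089). HMHA1, a GTPase-activating protein, was lower, at -0.34 ± 0.07 and -0.57 ± 0.09, with no overlap in either line. HMHA1 in D458 was at 12.3, 12.1 and 12.8 CPM with hairpin 7 and at 7.43, 8.31 and 9.32 CPM with hairpin 8.

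CCND3, the cyclin D3 that works with CDK4 and CDK6, was at 239, 220 and 235 CPM with hairpin 6 and 189, 201 and 193 CPM with hairpin 8 in D425, without overlap. In D458 it was at 351, 236 and 229 CPM with hairpin 7 and 306, 175 and 190 CPM with hairpin 8, where replicate 1 was high in both groups and the ranges overlapped. Its log2 differences were -0.25 ± 0.05 and -0.30 ± 0.05. SFXN3, a mitochondrial serine transporter, differed by -0.35 ± 0.06 and -0.33 ± 0.06. Its levels with hairpin 8, at 42.2 to 50.6 CPM in D425 and 72.5 to 89.4 CPM in D458, were above the controls (22.6 to 31.4 CPM and 54.1 to 63.9 CPM). With the other hairpin SFXN3 was at 56.6 to 63.6 CPM in D425, without overlap with hairpin 8, and at 87.9 to 115 CPM in D458, where the ranges overlapped. In D458, each of the 8 genes lost its call when at least 1 pair of D458 libraries was left out, and in D425 each lost it without replicate 1 of D425.

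**Figure D2:**
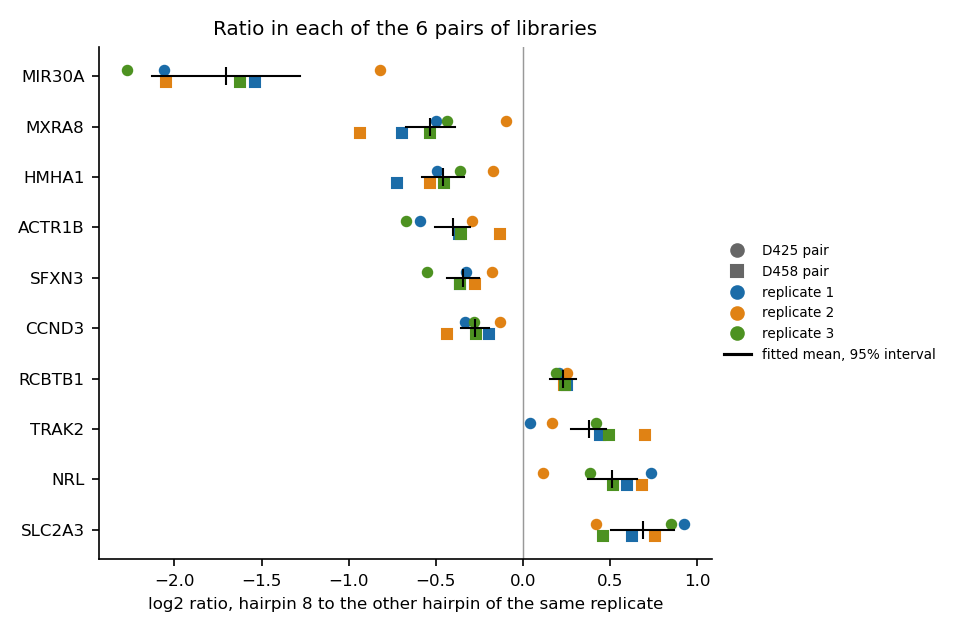
Log2 ratio of hairpin 8 to the other hairpin in each of the 6 pairs of libraries (horizontal axis), for the 8 genes that passed in both lines and for ACTR1B and TRAK2. Circles are D425 pairs, squares D458 pairs, colours the replicate number, and the black bar the fitted mean of both lines with its 95% interval; all 6 ratios lie on 1 side of 0 for every gene drawn.

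The mean of both lines asks for a difference on average over D425 and D458, and a gene can pass in it through 1 line. In this test 742 genes passed (5.06% of genes tested), 380 higher (2.59%) and 362 lower (2.47%). The lines had the same sign for 724 of them, and EYA2 was among the others, at -0.50 in the mean. Most differences were small: 708 of the 742 were under 1.5-fold and 11 were 2-fold or more. All 6 pairs had the same direction for 529 of them, and 340 had passed in neither line alone. With the controls in the fit 28 genes passed, of which 26 were among the 742, and without the pairing 0 did (640 at an unadjusted p under 0.05; DESeq2 with the pairing called 558). Leaving out 1 pair or 1 replicate number gave 47 to 1268 genes, the lowest without replicate 1.

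Besides MIR30A, the genes of largest difference in the mean that the naming rule gave were as follows. SYBU, which encodes a protein that links vesicles to kinesin, was higher by 0.89 ± 0.11 on the log2 scale (edgeR, adjusted p = 4.3e-04). Most of this came from D425, where SYBU had 32, 23 and 42 counts with hairpin 6 and 145, 51 and 106 with hairpin 8. The D458 counts of SYBU were 337, 131 and 154 with hairpin 7 and 489, 161 and 193 with hairpin 8. PLCD4, a phospholipase C, was higher by 1.21 ± 0.22, from 0.968 to 1.91 CPM with hairpin 6 to 1.72 to 5.75 CPM with hairpin 8 in D425. ARNTL, the circadian clock factor BMAL1, was higher by 0.83 ± 0.17 in the mean. In D425 it was at 6.20 to 10.8 CPM with hairpin 8 against 3.90 to 6.61 CPM with hairpin 6. Both genes were low in D458. There PLCD4 had 22, 5 and 6 counts with hairpin 7 and 51, 17 and 21 with hairpin 8. ARNTL had 14, 15 and 11 counts with hairpin 7 and 31, 29 and 19 with hairpin 8. Among the lower genes, FGFR3, a fibroblast growth factor receptor, differed by -0.76 ± 0.15, from 5.30 to 10.0 CPM with hairpin 6 to 3.90 to 4.66 CPM with hairpin 8 in D425. CDH11, an adhesion protein of mesenchymal cells, differed by -0.63 ± 0.10. MDK, which encodes the growth factor midkine, differed by -0.67 ± 0.15, and MND1, a meiotic recombination factor, by -0.57 ± 0.11. MDK was low in D458, with 64, 36 and 28 counts with hairpin 7 and 24, 26 and 25 with hairpin 8. Replicate 1 differed most there. ENDOD1, HMX3 and ALDH9A1 were lower, at -0.90 ± 0.17, -0.81 ± 0.22 and -0.57 ± 0.10. HMX3 was low in D458, with 21, 35 and 27 counts with hairpin 7 and 20, 22 and 12 with hairpin 8. ENDOD1 was also low there, with 84, 21 and 20 counts with hairpin 7 and 30, 14 and 8 with hairpin 8. ADTRP, LOC388813, LCA5L, LINC01260, HECW2 and CDH18 were the other higher genes that the naming rule gave, and each of them was under 2 CPM in every hairpin library of at least 1 line. TRIML2 and NRG3 had near-zero counts in 1 line, so no fold is given for them: TRIML2 had 1, 6 and 3 counts with hairpin 7 and 0 in each D458 library with hairpin 8, and NRG3 had 1, 0 and 0 counts with hairpin 6 and 9, 3 and 3 with hairpin 8.

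Of the 742 genes, 7 passed under all 16 alternatives with the pairing kept, and this selection was made after their values were seen. SLC2A3, MXRA8, HMHA1 and CCND3, described above, were among them, as were TRAK2 and ACTR1B. TRAK2, an adaptor that links mitochondria to motor proteins, was higher by 0.38 ± 0.05. In D458 it was at 72.6, 59.5 and 61.0 CPM with hairpin 7 and at 98.8, 96.6 and 86.1 CPM with hairpin 8, without overlap. ACTR1B, a subunit of the dynactin complex, was lower, at -0.40 ± 0.05, with 92.6, 105 and 105 CPM with hairpin 6 and 61.5, 85.7 and 66.1 CPM with hairpin 8 in D425.

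**Figure D3:**
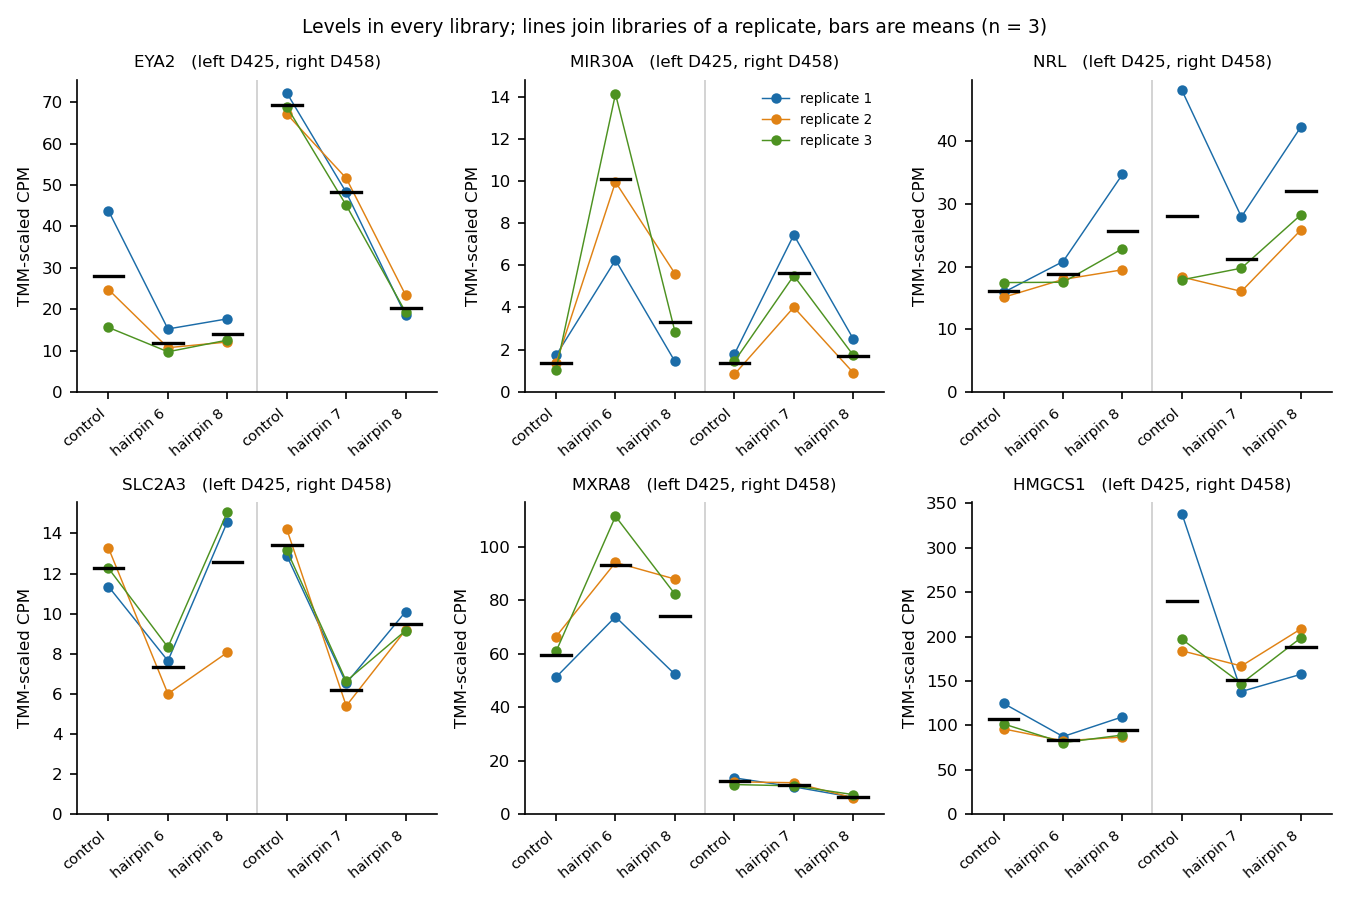
TMM-scaled CPM of EYA2, MIR30A, NRL, SLC2A3, MXRA8 and HMGCS1 in all 18 libraries, with D425 on the left and D458 on the right of each panel. Points are libraries, lines join the libraries of a replicate and black bars are group means (n = 3); EYA2 falls from 45.1 to 51.7 CPM with hairpin 7 to 18.5 to 23.4 CPM with hairpin 8 in D458.

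The genes of largest difference are given next for each line by itself. Being named for 1 line does not show a difference between the lines, for which 3 genes passed (below). Of the 526 genes of D425, 427 had the same sign in D458. In D425, 20 of the 526 genes were 2-fold or more apart and 471 were under 1.5-fold. SYBU was at 1.27, 0.890 and 1.4 CPM with hairpin 6 and at 4.86, 1.87 and 3.57 CPM with hairpin 8, a log2 difference of 1.5 ± 0.19 (edgeR, adjusted p = 3.0e-04) with no overlap. SEMA3C, a secreted axon guidance factor, was higher by 1.08 ± 0.20, with a wide spread at 3.79, 10.6 and 20.7 CPM with hairpin 8. P2RX6, a subunit of ATP-gated channels, was higher by 1.48 ± 0.31 at 0.623 to 1.85 CPM. KRT8, a keratin, was at 94.5, 104 and 164 CPM with hairpin 6 and 51.9, 83.4 and 96.1 CPM with hairpin 8, a log2 difference of -0.65 ± 0.08 (adjusted p = 0.0014) between groups that overlapped. CRABP2, which binds retinoic acid, was lower, at -0.61 ± 0.12, and GPR176, a G protein-coupled receptor, by -0.59 ± 0.11. C1QL4, a secreted synaptic protein, was lower, at -0.58 ± 0.16, at 5.20 to 13.4 CPM with hairpin 8 and 8.52 to 15.2 CPM with hairpin 6, with both far under the controls at 33.4 to 85.3 CPM. STOX2 and XIRP2 passed on few counts: STOX2 had 0 counts in every hairpin 6 library and 9, 4 and 2 with hairpin 8, and XIRP2 had 0 and then 5, 2 and 4. The D425 count fell to 48 without replicate 1 of both lines and to 51 without replicate 3, and rose to 997 without replicate 2.

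In D458, 7 of the 60 genes were 2-fold or more apart, all of them lower with hairpin 8. Among the higher genes, RP1L1, which encodes a protein of the photoreceptor axoneme, was at 4.85, 3.49 and 4.35 CPM with hairpin 7 and at 8.57, 6.62 and 7.04 CPM with hairpin 8, a log2 difference of 0.81 ± 0.15 (edgeR, adjusted p = 0.021). EPAS1, the hypoxia factor HIF-2 alpha, was higher by 0.71 ± 0.14, but its replicate 1 was far above the others in both groups (11.9 and 19.3 CPM against 2.46 to 5.59 CPM). MATN2, a matrix protein, was higher by 0.70 ± 0.14, MYH11, a smooth muscle myosin, by 0.59 ± 0.12, and TRAK2 by 0.54 ± 0.07. ALDOC, the brain form of aldolase, was higher by 0.49 ± 0.09, and SLC8A1, a sodium and calcium exchanger, by 0.47 ± 0.09.

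Among the lower genes of D458, SHD, an adaptor protein, was at 8.40, 5.54 and 2.69 CPM with hairpin 7 and at 4.65, 1.47 and 0.805 CPM with hairpin 8, a log2 difference of -1.38 ± 0.23 (edgeR, adjusted p = 0.014). ARHGDIG, an inhibitor of small GTPases, had the largest difference, -1.81 ± 0.37, on 17, 22 and 20 counts with hairpin 7 and 9, 4 and 5 with hairpin 8. TAPBP, the chaperone tapasin of MHC class I loading, differed by -0.98 ± 0.20 at 0.805 to 1.41 CPM with hairpin 8. MYH7, a cardiac myosin, differed by -1.19 ± 0.24, and PITX3, a homeodomain factor of lens and midbrain, by -0.80 ± 0.17. MFAP4, an elastic fibre protein, differed by -1.22 ± 0.25. TUBB3, the neuronal beta-tubulin, was at 72.1, 50.5 and 37.1 CPM with hairpin 7 and at 50.7, 25.3 and 22.7 CPM with hairpin 8, a log2 difference of -0.72 ± 0.11. Without replicate 2 or without replicate 3 of D458, 3 genes passed in that line, and EYA2 was the 1 gene that passed under each of the 6 left-out pairs.

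The difference between the lines asks for which genes the gap between hairpin 8 and the other hairpin was unequal in the lines. The other hairpin was hairpin 6 in D425 and hairpin 7 in D458, so a gene that passes need not follow hairpin 8. In this test 3 genes passed (0.0204% of genes tested), all 3 lower in D458 minus D425. At an unadjusted p under 0.05 (edgeR) there were 1162, and DESeq2 called 24. EYA2 was the first, as given above. GPR98, the very large adhesion receptor ADGRV1, was at 72.1, 56.0 and 49.9 CPM with hairpin 6 and at 106, 83.1 and 77.4 CPM with hairpin 8 in D425, without overlap. In D458 it was at 95.2, 82.1 and 78.9 CPM with hairpin 7 and at 103, 87.6 and 67.0 CPM with hairpin 8, which overlapped. The log2 differences of GPR98 were 0.59 ± 0.06 and -0.01 ± 0.06, a gap of -0.59 ± 0.09 (edgeR, adjusted p = 0.015). C14orf132 had 0.49 ± 0.09 in D425 and -0.23 ± 0.08 in D458, a gap of -0.72 ± 0.12 (adjusted p = 0.040). KIAA1109 and SERPINH1 had the next smallest p and did not pass (adjusted p = 0.059 and 0.071). On simulated counts the test called more unchanged genes in this contrast than passed here, so GPR98 and C14orf132 are weakly supported.

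Gene lists were read by how many tested members passed and by their median. Over all genes, 1.92% passed as higher and 1.67% as lower in D425, 0.191% and 0.218% in D458, and 2.59% and 2.47% in the mean of both lines. At an unadjusted p under 0.05 (edgeR), 1430 of the 14672 genes tested were higher and 1540 lower in D425. The numbers were 701 and 738 in D458, and 1545 and 1602 in the mean. Of 38 tested photoreceptor and retinal genes, 3 were higher (7.89%) and 0 lower in D425, with a list median of 0.13 against 0.00 for all genes. In D458, 2 were higher (5.26%) and 1 was lower (2.63%), with a median of 0.17 against -0.01. In the mean of both lines, 7 were higher (18.4%) and 2 lower (5.26%), with a median of 0.15 against 0.00. NR2E3, the nuclear receptor that acts with NRL in rods, was higher by 0.48 ± 0.10 and GNGT1, a transducin subunit of rods, by 0.30 ± 0.05. PDE6A, a rod phosphodiesterase subunit, was higher by 0.19 ± 0.04, IMPG2, a proteoglycan of the matrix between photoreceptors, by 0.17 ± 0.03, and ABCA4, a retinoid transporter, by 0.24 ± 0.05. RCVRN, the calcium sensor recoverin, was higher by 0.66 ± 0.17, on levels under 1.30 CPM in D458. TULP1, a photoreceptor trafficking protein, was lower, at -0.34 ± 0.07 and IMPDH1, an enzyme of guanine nucleotide synthesis, by -0.17 ± 0.03. Several of these names go beyond the naming rule and were chosen after their values were seen. CRX, the cone-rod homeobox factor, had -0.06 ± 0.07 in D425 and 0.02 ± 0.06 in D458. OTX2, its relative that marks this tumour group, had -0.08 ± 0.04 and -0.05 ± 0.04. The 7 higher members were 1 without replicate 1 and 0 with the controls in the fit.

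In D458, 3 genes of cholesterol synthesis were higher. They were 9.68% of a list of 31 tested members, against 0.191% of all genes tested, and 0 members were lower. At an unadjusted p under 0.05 (edgeR), 12 were higher and 0 lower there, and DESeq2 called 4 and 0. In D425, 0 were higher and 1 lower, with 5 and 4 at the unadjusted threshold, and DESeq2 called 0 and 1. There were 8 higher (25.8%) and 0 lower in the mean of both lines, where 2.59% of all genes were higher. The list median there was 0.06. HMGCS1, the enzyme that makes HMG-CoA, was at 138, 167 and 147 CPM with hairpin 7 and at 158, 209 and 198 CPM with hairpin 8. These groups overlapped, since replicate 1 of hairpin 8 lay below replicate 2 of hairpin 7, and all 3 pairs rose, by 0.31 ± 0.06 on the log2 scale (edgeR, adjusted p = 0.019). The isomerase IDI1 and the squalene synthase FDFT1 were higher by 0.30 ± 0.06 and 0.32 ± 0.06. The D458 controls held HMGCS1 at 338, 184 and 197 CPM, a range that overlapped that of hairpin 8. Other members that passed in the mean were MSMO1, HSD17B7, INSIG1 and STARD4, at 0.19 to 0.33, named after their values were seen. The 8 members in the mean were 1 without replicate 1 and 2 without replicate 3.

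Some cell cycle genes were lower with hairpin 8 in D425 and in the mean of both lines. Of 47 tested genes of DNA replication and S phase, 7 were lower (14.9%) and 0 higher in D425, with a median of -0.18, and 0 passed in D458, with a median of -0.06 (1 higher and 2 lower at an unadjusted p under 0.05; DESeq2 called 0). In D425, RFC5, a subunit of the clamp loader, was lower, at -0.35 ± 0.08 and GINS2, a subunit of the replicative helicase, by -0.30 ± 0.07. Of 40 genes of G2 and mitosis, 9 were lower (22.5%) and 0 higher in D425, with a median of -0.18, and 0 passed in D458, with a median of -0.05 (again 1 higher and 2 lower at an unadjusted p under 0.05, and 0 by DESeq2). AURKB, a mitotic kinase, differed by -0.32 ± 0.07, PLK1, another mitotic kinase, by -0.31 ± 0.07 and UBE2C, a ubiquitin-conjugating enzyme of mitosis, by -0.27 ± 0.06. Differences between the lines did not pass for any member of either list. In the mean of both lines, 7 of the 47 replication genes (14.9%) and 8 of the 40 mitotic genes (20%) were lower. None was higher there, and 2.47% of all genes were lower. In D458, 36 of the 47 and 27 of the 40 were below 0. Both lists had 0 lower members in D425 without replicate 1 and 0 without replicate 3, and 16 and 20 without replicate 2. MKI67, the proliferation marker with a long transcript, had a log2 difference of 0.01 ± 0.11 in D425.

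Cytosolic ribosomal protein genes had 5 of 50 members lower in D425 (10.0%) and 0 in D458 (2 at an unadjusted p under 0.05; DESeq2 called 0). All 50 were below 0 in D425, with a median of -0.12, and RPL7A was lowest at -0.29 ± 0.05. The longest GENCODE transcript of each gene in this list had a median length of 1985 bases. The length of the transcript expressed was not measured. Genes of 54 to 2078 bases by this measure, the shortest of 5 equal groups, had a median of -0.07 in D425. With length offsets for each library, RPL7A still passed and RPL19, RPL32 and RPS15 did not (edgeR, adjusted p = 0.134, 0.070 and 0.083). Of 37 genes of hypoxia response and glycolysis, 4 were higher (10.8%) and 3 lower (8.11%) in the mean of both lines. SLC2A3 and ALDOC were among the higher ones, while the glycolytic enzymes GAPDH and ENO1 were lower, at -0.18 ± 0.03 and -0.13 ± 0.03. Of 21 growth factor receptor kinases, 2 were higher (9.52%) and 4 lower (19%) in the mean, where 2.59% of all genes were higher and 2.47% lower. The lower ones included FGFR3 and DDR1, a collagen receptor at -0.35 ± 0.05, and the higher ones included DDR2, its relative, at 0.33 ± 0.07.

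**Figure D4:**
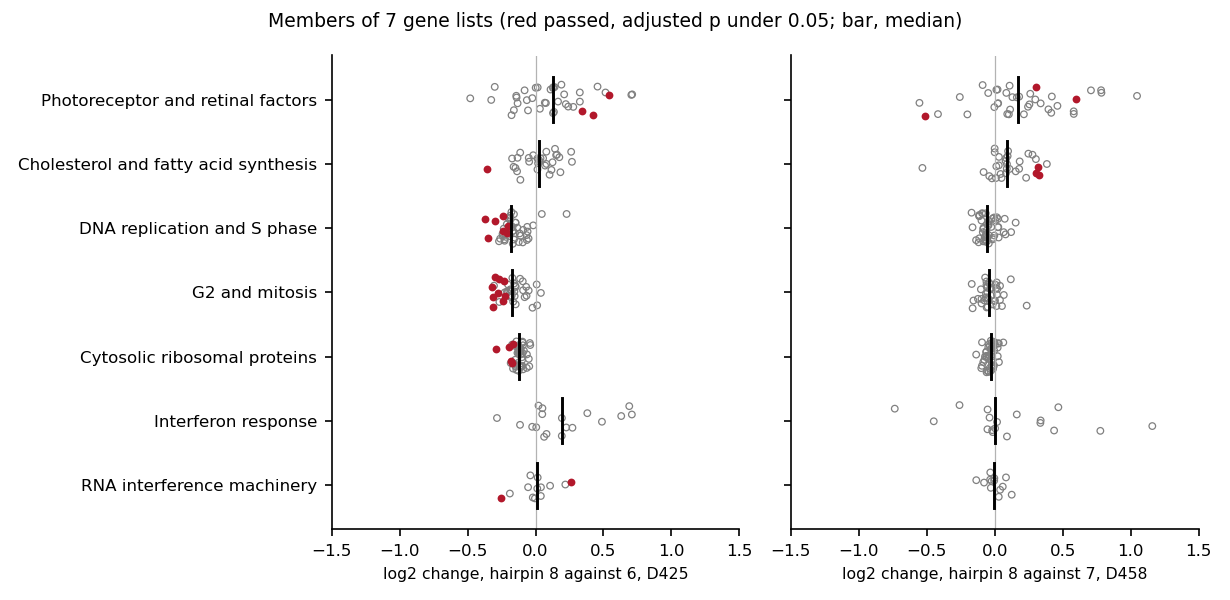
Log2 difference between hairpin 8 and the other hairpin in D425 (left) and D458 (right) for each tested member of 7 gene lists, 1 point per gene. Red points passed, open points did not and bars are list medians; 1 member in each line lies outside the axes, which end at 1.5 on either side, and cell cycle and ribosomal members lie mostly below 0 in D425.

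Genes of the interferon response and of RNA interference were also read from lists. Both sides of each comparison carried a hairpin against EYA2, so a response shared by the hairpins could not be seen here. Of 19 tested interferon response genes, 0 passed in D425 and 0 in D458 (1 higher and 0 lower at an unadjusted p under 0.05 in D425, and 1 higher and 1 lower in D458; DESeq2 called 0 and 1). In the mean IFITM3, an antiviral membrane protein, was lower, at -0.43 ± 0.09. Of 13 tested genes of the RNA interference machinery, 2 passed in D425 and 0 in D458 (1 at an unadjusted p under 0.05; DESeq2 called 0). DICER1 was higher in D425 by 0.26 ± 0.06, at 163, 190 and 136 CPM with hairpin 8 and 146, 141 and 121 CPM with hairpin 6. TARBP2, the partner of DICER1, was lower, at -0.25 ± 0.06, at 47.3 to 53.6 CPM against 58.8 to 61.0 CPM. Both lost their calls in D425 with length offsets, DICER1 at 0.15 and TARBP2 at -0.22 (edgeR, adjusted p = 0.093 and 0.052), and without replicate 1 or replicate 2 of D425.

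Lists of microglial, endothelial, astrocyte, oligodendrocyte, fibroblast and granule neuron markers had at most 1 member passing in a direction in any comparison. Fibroblast and pericyte markers had a median of 0.47 in D425 over 7 tested members, 6 of them above 0, and of 0.39 in the mean. In each of these comparisons 4 of the 7 were higher at an unadjusted p under 0.05. Of all 14672 genes tested, 1430 in D425 and 1545 in the mean were higher at that threshold. RGS5, a pericyte marker, passed in the mean, at 0.39 ± 0.11 (edgeR, adjusted p = 0.045). Summed over 8 of these markers, levels were 47.6 to 90.7 CPM with hairpin 6 and 58.3 to 103 CPM with hairpin 8 in D425, and 41.8 to 80.4 CPM with hairpin 7 and 42.2 to 95.5 CPM with hairpin 8 in D458. Their part in the other results was not tested. The astrocyte glutamate transporters SLC1A2 and SLC1A3 passed in opposite directions in D425, at 0.40 ± 0.10 and -0.46 ± 0.08. Summed over 10 microglial markers, levels were 4.22 to 5.73 CPM with hairpin 6 and 3.96 to 6.10 CPM with hairpin 8 in D425, and 5.06 to 8.78 CPM with hairpin 7 and 4.61 to 8.53 CPM with hairpin 8 in D458. P2RY12 and C1QB were at 0 in all of these libraries. The endothelial marker CLDN5 passed in D425 through replicate 1 of hairpin 8 alone, with 34 counts there and 1 or 2 in the other 5 hairpin libraries. Without that pair its log2 difference was -0.04.

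The D425 differences were graded by transcript length, measured as the length of the longest GENCODE transcript of each gene. A length was found for 14194 of the tested genes (96.7%). Genes were divided by length into 5 groups of equal size. In the longest group, at 5905 to 109224 bases, 172 of 2838 were higher with hairpin 8 (6.06%) and 9 lower (0.317%). In the shortest group, at 54 to 2078 bases, 11 of 2839 were higher (0.387%) and 89 lower (3.13%). Over all genes tested, 1.92% were higher and 1.67% lower. The log2 difference and log2 length had a Pearson r of 0.30 in D425 over 9803 genes of at least 8 CPM, and 0.21, 0.42 and 0.11 in its 3 pairs. In D458 it was 0.08, and 0.17, -0.01 and 0.03 in the pairs, so replicate 1 of D458 had the grade that replicates 2 and 3 lacked. Several genes with the smallest p in D425 have long transcripts, among them GPR98, VPS13C, a lipid transport protein (0.61 ± 0.07), KIAA1109, another such protein (0.50 ± 0.06), and AKAP13, an anchoring protein for kinase A (0.46 ± 0.06).

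With length entered as an offset for each library, an alternative chosen after seeing the data, 345 genes passed in D425, of which 267 were among the 526. In D458, 50 passed, and 44 of them were among the 60. In the mean 569 passed, and 474 of them were among the 742. The lower replication genes of D425 were then 3 and the mitotic genes 5. In the difference between lines GPR98 went from -0.59 to -0.38 and no longer passed (adjusted p = 0.240). C14orf132 did not pass either, at -0.67 against -0.72 (edgeR, adjusted p = 0.103), while EYA2 did. Photoreceptor members higher in the mean were 9. MXRA8, HMHA1, CCND3, SLC2A3, NRL and MIR30A still passed in the mean. Of the genes that had passed in both lines, MIR30A lost its call in D458, at -1.70 (edgeR, adjusted p = 0.122), and the others passed in both lines. The lower ribosomal protein genes of D425 were 3 in place of 5. RNA quality values were not used here, and the part of RNA quality or library preparation in this grade was not tested.

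**Figure D5:**
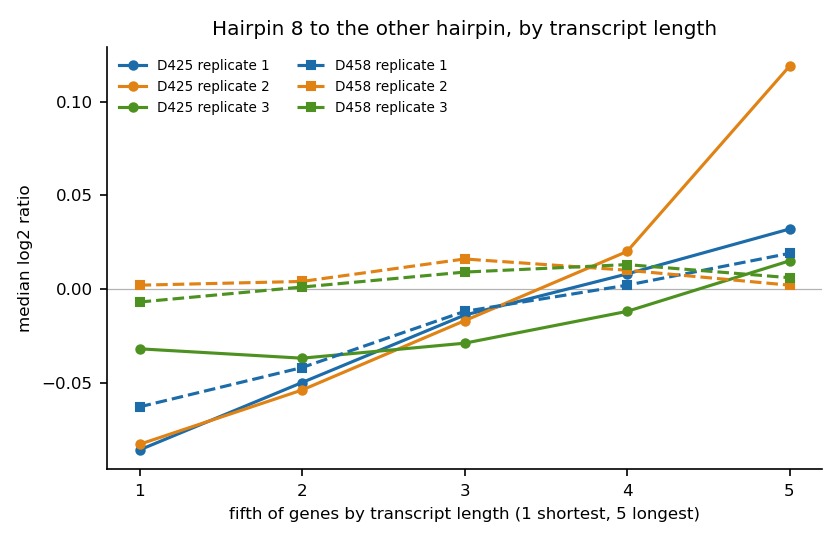
Median log2 ratio of hairpin 8 to the other hairpin (vertical) in 5 equal groups of genes by transcript length (horizontal, 1 shortest, 5 longest), for genes of at least 8 CPM in each of the 6 pairs. Solid lines are D425 pairs and dashed lines D458 pairs; D425 replicate 2 runs from -0.083 to 0.119, while D458 replicates 2 and 3 stay near 0.

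No chromosome moved as a whole. Median log2 differences by chromosome ran from -0.06 on chromosome 19 to 0.01 on chromosome 5 in D425, and from -0.03 on chromosome 16 to 0.02 on chromosome 4 in D458, over 9818 genes.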

How the data were processed

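The deposited table holds whole-number read counts for 25369 gene symbols in 18 libraries, with no normalization, as the authors deposited it. Libraries were strand-specific and enriched for polyadenylated RNA, per the labels' protocols. The submitters' processing notes name TopHat2, HTSeq, Bowtie2, Picard, SAMtools, FastQC and bcl2fastq, and the build GRCh37/hg19. Tool versions, the strand option of the counting and its handling of multi-mapped reads were not given in the sources used here, and values of overlapping genes and near-identical copies are uncertain for that reason.

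Genes were kept with filterByExpr on the 4 hairpin groups (minimum count 10), which left 14672 and removed 10697. A robust edgeR 4.0.16 quasi-likelihood model (R 4.3.3) was fitted to the 12 hairpin libraries, with TMM factors from all 18, 1 term for each line and replicate number (6 terms) and 1 hairpin 8 effect per line (4 residual degrees of freedom; the common biological variation between libraries was 0.058 as a coefficient). Contrasts were the effect in each line, their mean and D458 minus D425. Adjusted p values are from this test with Benjamini-Hochberg adjustment over all 14672 genes, and a gene passed under 0.05. Errors of log2 differences are standard errors. They rest on the spread between paired libraries and on information shared over genes (a median of 15.6 prior degrees of freedom). Library totals ran from 21260369 to 28711549 counts, and depth alone does not set these errors.

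The comparison is defined as paired. The labels give libraries of a replicate number a shared number (7, 9 and 10), read here as a run number. They do not say what it stands for. Their dates are earlier for replicate 1 than for replicates 2 and 3, which share a date. In replicate 1 the date of D425 was not that of D458. Deviations from group means of same-numbered libraries correlated at 0.77, 0.57 and 0.56 in D425 and at 0.88, 0.63 and 0.82 in D458. No 2 libraries of a group agreed within sampling noise.

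The members and the 43 gene lists were chosen with earlier results of these data known, so no list is adjusted alone or tested as a set. The naming rule gives EYA2 and its network, the 10 higher and 10 lower genes of largest difference in each contrast (passed, at least 1 CPM on average, same direction in every pair), all genes that passed in both lines, and up to 4 passed members per list. Alternatives were DESeq2 1.42.0, other scaling factors, no filter, no pairing, controls in the fit, each line alone, left-out pairs, and offsets for transcript length and GC content, the last 2 chosen after seeing the data. Tested on simulated counts, the test recovered most changed genes, and its share of false calls was above the nominal one in each contrast. Promoters and proteins were not used here. Some genes of the lists are not reported here.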

Additional observations from a re-analysis of the deposited data

Results flagged for a closer look

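For 3 genes the difference between hairpin 8 and the other hairpin was itself different in the lines, by the test of D458 minus D425 on the log2 scale. EYA2 had the largest gap of them, at -1.5 ± 0.12, and passed under each of the 6 left-out pairs (highest adjusted p = 1.1e-04, edgeR). GPR98 had a gap of -0.59 ± 0.09 and lost its call without replicate 1 of D425 or replicate 3 of D458 (highest adjusted p = 0.142, edgeR), and with transcript length offsets (adjusted p = 0.240, edgeR). C14orf132 had a gap of -0.72 ± 0.12 and lost its call in 4 of the 6 (highest adjusted p = 0.204, edgeR), and with length offsets (adjusted p = 0.103, edgeR). C14orf132 was at 28.1, 9.33 and 14.2 CPM with hairpin 6 and 37.6, 14.6 and 19.2 CPM with hairpin 8 in D425, and at 74.5, 51.6 and 36.4 CPM with hairpin 7 and 70.0, 36.0 and 33.9 CPM with hairpin 8 in D458. Hairpin 8 faced a different hairpin in each line, so a gap between the lines and a gap between hairpins 6 and 7 cannot be told apart.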

How the results depend on the processing

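The number of genes that passed depended on the pairing. With no replicate block, 0 genes passed in D425, 0 in D458, 0 in the mean, 0 in the difference and 0 in both lines, and EYA2 kept its size without passing: -1.25 in D458 (adjusted p = 0.230), -0.50 in the mean (adjusted p = 0.905) and -1.5 in the difference between lines (edgeR, adjusted p = 1). With the controls in the fit the numbers were 0, 1, 28, 0 and 0, and EYA2 was at -0.50 in the mean and -1.51 in the difference (adjusted p = 0.0738 and 0.0626). No filter gave 1066, 389, 1239, 182 and 116. Each line alone gave 310 in D425, 361 in D458 and 42 in both. DESeq2 gave 24 in the difference and 15 in both lines. Length offsets gave 345 in D425 and 1 in the difference, and length with GC offsets 1 in the difference. Leaving out a pair or a replicate number gave 48 to 997 in D425, 3 to 154 in D458, 47 to 1268 in the mean, 1 to 53 in the difference and 0 to 67 in both lines. CLDN5 in D425 ran from -0.043 without replicate 1 to 3.17 without replicate 2. The cause of these shifts was not tested, except that left-out pairs leave fewer libraries. In the mean, 125 of the 742 genes passed under each of the 6 left-out pairs, as did 51 of 526 in D425 and 1 of 60 in D458. Genes near 0 counts are limited by depth, and their fitted folds depend on the prior count.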

Other observations

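Other lists also had members that passed in the mean of both lines, where 2.59% of all genes were higher and 2.47% lower. Of 22 tested genes of the ATF4 amino acid response, 4 were lower (18.2%) and 0 higher, with a median of -0.10: the factor ATF4 at -0.14 ± 0.03, the asparagine synthetase ASNS at -0.20 ± 0.04, PHGDH, the first enzyme of serine synthesis, at -0.14 ± 0.04 and the factor CEBPB at -0.24 ± 0.07. With length offsets ASNS still passed and ATF4, CEBPB and PHGDH did not (edgeR, adjusted p = 0.054, 0.085 and 0.052), and CEBPB did not pass in DESeq2 (adjusted p = 0.102). Of 35 DNA repair and checkpoint genes, 2 were higher (5.71%) and 3 lower (8.57%). RAD51C, a recombination factor, was lower, at -0.39 ± 0.05, while LIG4, the ligase of end joining, was higher, at 0.29 ± 0.06. Of 17 neurotransmitter receptors, GABRA5, a GABA receptor subunit used as a marker of Group 3 medulloblastoma, was lower, at -0.36 ± 0.06 and GRIA1, a glutamate receptor subunit, was higher, at 0.36 ± 0.08. Of 32 synaptic and cytoskeletal genes, 4 were higher (12.5%), among them the synaptotagmins SYT1 and SYT11 at 0.24 ± 0.04 and 0.26 ± 0.06, and 3 were lower (9.38%), with TUBB3 at -0.51 ± 0.07. Of 31 genes of the BMP and TGF-beta response, 3 were higher (9.68%) and 2 lower (6.45%), with a median of -0.06. The higher ones included SMAD2 and SMAD5, which carry the signal. The lower ones were the BMP targets ID1 and ID3, at -0.17 ± 0.04 and -0.14 ± 0.04. Neither ID1 nor ID3 passed with length offsets (edgeR, adjusted p = 0.144 and 0.153).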
